A study of Rattus norvegicus with 18 samples.

Results

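The comparison of MWCNT-treated with control rats at Year 0.5 covered the lungs of 6 rats, 3 in each group, of the 18 rats with RNA-seq data in the study, and every gene of the deposited table entered it. The 6 rats were chosen by the group and time point in the sample labels. The gene lists were chosen with earlier results of these data known. The animals were male F344/DuCrlCrlj rats, an inbred strain, that received MWNT-7, a long and rigid multiwalled carbon nanotube (MWCNT), at 0.5 mg/kg body weight, or the vehicle, saline with Tween 80 (0 mg/kg), by intratracheal instillation every 4 weeks. Dosing began at 9 weeks of age, and the rats of Year 0.5 were killed at week 26 of the experiment. Anesthesia with isoflurane and repeated instillation were shared by both groups. Rats are numbered 1 to 3 within each group. RNA came from a small piece of the accessory lobe in which no tumor was seen, and each library was made from 1 rat. The rats of Years 1 and 2, which were other animals, were used only to ask whether the effect at Year 0.5 differed from the later effects. The measurement was therefore of whole lung tissue, in which fewer cells of a type and less RNA per cell cannot be told apart.

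The alveoli of the lung are lined by flat type 1 cells, across which gas exchange takes place, and by cuboidal type 2 cells, which secrete surfactant and can divide to replace type 1 cells. Inhaled particles that reach the alveoli are taken up by macrophages, which break down their cargo in lysosomes and call in other leukocytes by secreting chemokines. Fibers too long to be engulfed and too durable to be dissolved stay in the tissue, where they are known to sustain inflammation.

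Total counts were 13738894 to 16596355 reads per rat in the control rats and 15487364 to 21130757 in the MWCNT-treated rats, and 3.39 to 4.08% of them came from mitochondrial genes. On the first component of a principal components analysis, which held 68.2% of the variance, the control rats scored -42.1, -38.5 and -35.5 and the MWCNT-treated rats 35.04, 50.3 and 30.7. The defining genes of lung were abundant in control rats, at 20141 TPM for the surfactant gene *Sftpc* and 27083 TPM for the club cell gene *Scgb1a1* (means in the deposited TPM unit, a level scaled for gene length and library). Heart muscle markers were present in every library and were highest in control rat 3, with a summed level of 254 to 920.2 TPM in the control rats and 127 to 172 TPM in the MWCNT-treated rats. Red cell genes summed to 8772 to 10912 TPM in the control rats and 2179.8 to 5618 TPM in the MWCNT-treated rats. Both groups of genes touch results below and are given there.

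Of 22081 genes in the table, 14315 had enough counts for the quasi-likelihood test of edgeR, and differentially expressed genes (DEGs) were those with an FDR (Benjamini-Hochberg) below 0.05 whose log2 fold change passed 1 in either direction. At Year 0.5 MWCNT-treated rats had 869 upregulated genes (6.07% of those tested) and 434 downregulated genes (3.03%), together 9.1%, and 38.8% passed the FDR with no limit on the fold change. The upregulated genes included 72 with a log2 fold change above 3, whereas only 4 downregulated genes changed by as much. In 853 of the upregulated and 424 of the downregulated genes the groups did not overlap in CPM. CPM was computed here from the deposited counts with the library sizes and TMM factors of the 6 rats, without scaling by gene length. Overlap of the groups is given on that scale throughout. Such separation was common, since in 26.2% of all tested genes the 3 MWCNT-treated rats lay above all control rats and in 25.6% they lay below. Over all tested genes the median log2 fold change was -0.02. The gene groups below can be read against this median, and their counts of DEGs against the shares of 6.07% and 3.03%. Log2 fold changes are on the TMM scale, whereas the TPM values beside them are as deposited. Upregulated genes made up 66.7% of the DEGs with TMM factors and 54.2% with scaling by library size only (760 upregulated and 643 downregulated), a scaling under which the median of all genes was -0.12. Without MWCNT rat 2, which was sequenced most deeply and scored highest on the first component, 735 genes were upregulated and 225 were downregulated, and 202 of these 225 were among the 434.

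**Figure D1:**
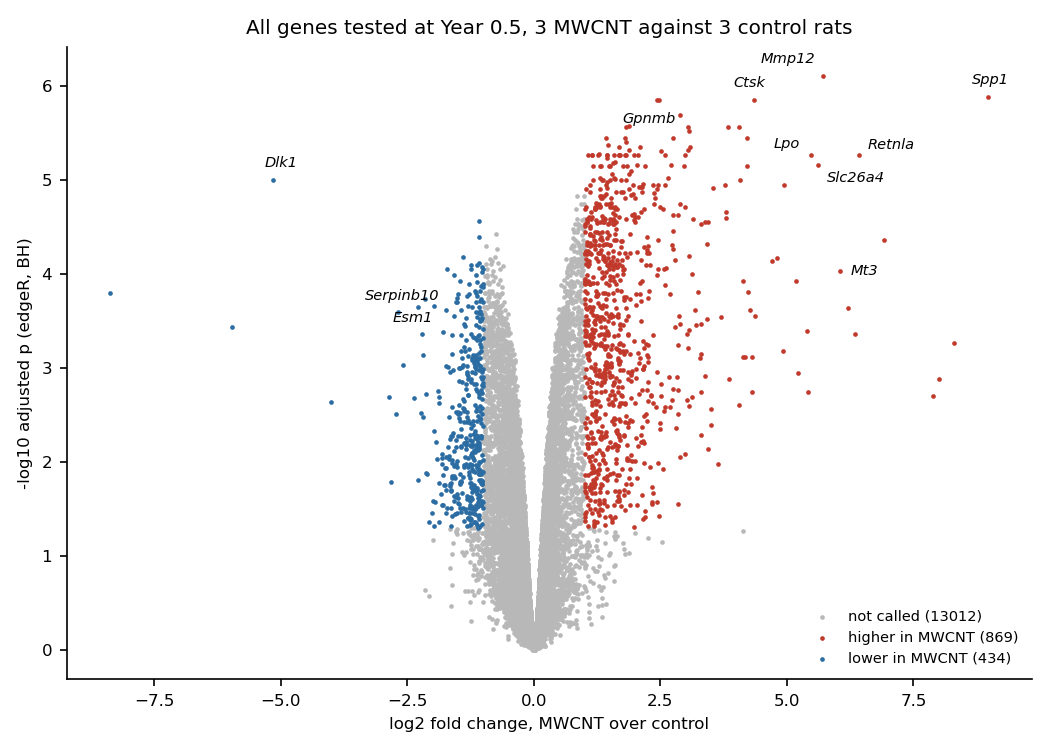
Each point is 1 of the 14315 genes tested at Year 0.5, with the log2 fold change of MWCNT-treated over control rats on the x axis and -log10 of the FDR on the y axis. The 869 upregulated genes (red) reach a log2 fold change of 8.97 at *Spp1*, while 412 of the 434 downregulated genes (blue) lie between -1 and -2. *Dlk1* is at -5.15, and the points to its left are genes with few counts.

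Among genes with a CPM of at least 5 in the higher group, the largest rise was that of *Spp1* (ENSRNOG00000043451, chromosome 14, 6673686 to 6679901 in Rnor_6.0), which encodes osteopontin, a secreted phosphoprotein that binds integrins on macrophages and other cells. *Spp1* was measured at 2.53, 1.90 and 4.90 TPM in the control rats and 1386, 1708 and 1157 TPM in the MWCNT-treated rats. The lowest MWCNT-treated rat was thus 236 times above the highest control rat, and the log2 fold change was 8.97 ± 0.28 (SE), FDR = 1.3e-06. *Retnla*, which encodes a resistin-like protein made by alternatively activated macrophages, was at 14.3, 6.30 and 17.5 TPM in the control rats and 792, 1370.0 and 836 TPM in the MWCNT-treated rats (log2 fold change 6.43 ± 0.33 (SE), FDR = 5.51e-06). *Mmp12*, the macrophage elastase, was at 4.03, 6.12 and 4.83 TPM in the control rats and 259, 242 and 203 TPM in the MWCNT-treated rats (log2 fold change 5.71 ± 0.16 (SE), FDR = 7.84e-07). For both genes the groups lay far apart.

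**Figure D2:**
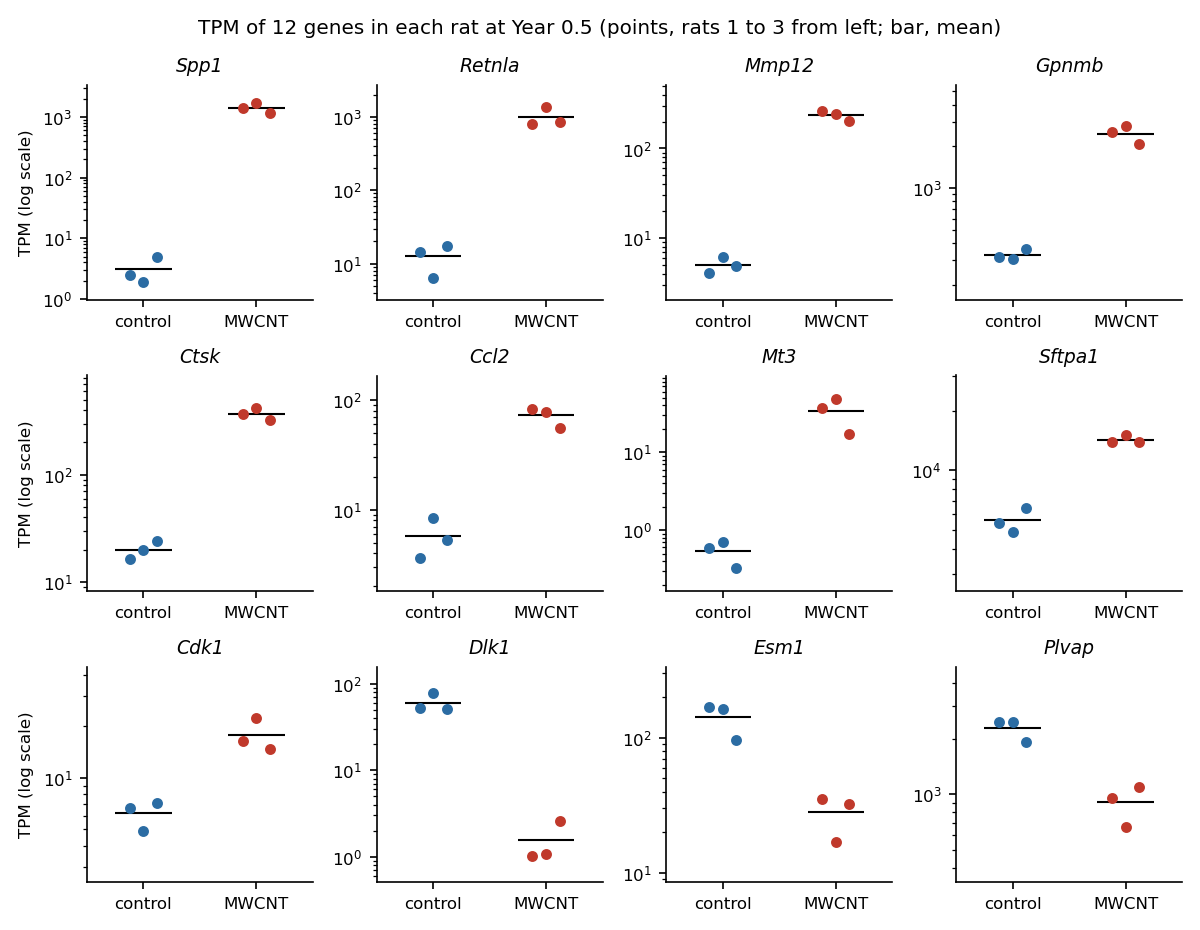
TPM of 12 genes on logarithmic axes, with 1 point for each of the 3 control rats (blue) and 3 MWCNT-treated rats (red) and a bar at the mean of each group. The groups do not overlap for any of the 12, and the gap is widest for *Spp1*, from 3.11 TPM in control to 1417 TPM in MWCNT-treated rats on average.

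The next largest rises included genes known from epithelium, airway fluid and neurons, and a lysosomal protease gene. *Slc26a4* encodes pendrin, an anion exchanger of epithelial cells, and was at 1.49, 1.65 and 4.49 TPM in the control rats and 98.2, 129.9 and 109 TPM in the MWCNT-treated rats (log2 fold change 5.62 ± 0.31 (SE), FDR = 6.95e-06). *Lpo* encodes lactoperoxidase, a secreted peroxidase of airway fluid, and was at 0.410, 0.295 and 0.138 TPM in the control rats and 9.79, 12.9 and 12.2 TPM in the MWCNT-treated rats (log2 fold change 5.47 ± 0.28 (SE), FDR = 5.4e-06). *Ctsk*, a lysosomal collagen-degrading protease best known from osteoclasts, was at 16.4, 19.7 and 24.1 TPM in the control rats and 366, 420.2 and 326 TPM in the MWCNT-treated rats (log2 fold change 4.36 ± 0.15 (SE), FDR = 1.41e-06). In all 3 genes every MWCNT-treated rat was above every control rat. *Scn10a*, a voltage-gated sodium channel of sensory neurons, rose by 4.81 on the log2 scale, the secretin receptor gene *Sctr* by 4.31, and *Ptprn*, a gene of secretory granules in neuroendocrine cells, by 4.27. Control counts of these 3 genes were at most 11 per rat. *Mrgprx2*, a Mas-related receptor gene with close paralogs among which reads may be split, and *Mab21l3* rose by 4.95 and 4.14 from control counts of at most 7.

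By level rather than by ratio, the largest rise among DEGs was that of *Lyz2*, the lysozyme gene of macrophages and alveolar epithelium, from 24942 ± 1521 to 55904 ± 2403 TPM (SD, n = 3), which is a log2 fold change of 1.31 ± 0.09 (SE), FDR = 1.9e-05. Among DEGs it was followed by the surfactant protein gene *Sftpa1*, by *Cd74*, the invariant chain of MHC class II, and by *Gpnmb*, a glycoprotein of phagocytes. *Cd74* went from 2239 ± 138 to 5019 ± 398 TPM, and *Gpnmb* from 328 ± 28.8 to 2468 ± 371 TPM (SD, n = 3). The lysosomal genes *Npc2*, *Ctsd* and *Ctsb*, the lipid carrier *Apoe* and *Spp1* itself were also among the 10. *LOC100360087*, also among them, went from 2226 ± 183 to 4172 ± 264 TPM (SD, n = 3), and its log2 fold change was 0.99 (FDR = 0.000144) without control rat 3, below the threshold of the DEG call.

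Macrophage markers rose as a group. Of 16 measured markers 11 were upregulated and 0 were downregulated, against 6.07% and 3.03% of all tested genes, and their median log2 fold change was 1.42. The summed level of the list was 24488 to 27330.0 TPM in the control rats and 55685 to 60412 TPM in the MWCNT-treated rats, most of it *Lyz2*. *Cd68*, a lysosomal membrane glycoprotein of macrophages, was at 84.4, 89.2 and 86.0 TPM in the control rats and 409.6, 465 and 396 TPM in the MWCNT-treated rats (log2 fold change 2.44 ± 0.08 (SE), FDR = 1.41e-06). *Siglec1*, a sialic acid receptor of resident macrophages, went from 5.13 ± 0.691 to 20.9 ± 3.81 TPM, and *Itgax*, which encodes the integrin CD11c of alveolar macrophages, from 14.7 ± 1.35 to 48.8 ± 3.15 TPM (SD, n = 3). The complement recognition genes *C1qa*, *C1qb* and *C1qc* rose by 2.14, 1.83 and 1.59 on the log2 scale. *Marco*, a scavenger receptor that binds particles, had counts of 0, 1 and 0 in the controls, against 27, 59 and 26 after MWCNT, a ratio of 103.7 with a counting interval (95%, counting error only) of 18.2 to 4130. The general macrophage markers moved less, with log2 fold changes of 0.34 for *Csf1r*, the receptor for macrophage colony-stimulating factor, 0.71 for *Adgre1*, 0.68 for *Mertk* and 0.82 for *Pparg*, none of which was a DEG. *Cd163*, a hemoglobin scavenger receptor, went the other way at -0.25 without being called, and its groups overlapped. The count of 11 was the same whichever rat was left out.

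Genes of lipid-laden macrophages and of lysosomes were upregulated beside the markers themselves. In the foamy macrophage list 9 of 13 tested genes were upregulated and 0 downregulated, with a median log2 fold change of 1.66. Besides *Spp1* and *Gpnmb* these were the fatty acid binding protein genes *Fabp4*, at 30.5, 36.9 and 42.4 TPM in the control rats and 279.5, 315 and 239 TPM in the MWCNT-treated rats (log2 fold change 3.08 ± 0.15 (SE), FDR = 4.51e-06), and *Fabp5*, at 225 ± 2.22 to 710.1 ± 59.6 TPM (SD, n = 3). They also included the lipid receptor gene *Trem2*, the oxidized lipoprotein receptor gene *Olr1*, *Apoe*, the lysosomal lipase gene *Lipa* and the tetraspanin gene *Cd63*, which rose by 1.82, 1.66, 1.73, 1.34 and 1.14 on the log2 scale. *Plin2*, which coats lipid droplets, and the lipoprotein lipase gene *Lpl* were at 0.66 and 0.72 and were not called.

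In the lysosome list 13 of 24 genes were upregulated and 0 downregulated, with a median of 1.07. After *Ctsk* the largest rise was that of *Atp6v0d2*, a subunit of the proton pump that acidifies osteoclast compartments, at 2.59, 3.20 and 3.59 TPM in the control rats and 50.1, 50.3 and 39.1 TPM in the MWCNT-treated rats (log2 fold change 4.05 ± 0.17 (SE), FDR = 2.76e-06). The cathepsin genes did not move alike. *Ctsz*, *Ctss*, *Ctsh*, *Ctsd*, *Ctsb* and *Ctsa* rose by 1.73, 1.67, 1.59, 1.45, 1.42 and 1.13 on the log2 scale, whereas *Ctsl* had a log2 fold change of -0.01 with overlapping groups. *Npc2*, which moves cholesterol out of lysosomes, rose from 1087 ± 104.1 to 3005 ± 168 TPM (SD, n = 3), and its partner *Npc1* was called at 1.01 but fell short of the threshold, at 0.97 (FDR = 0.000212) without control rat 2 and 0.97 (FDR = 7.72e-05) without MWCNT rat 2. *Lgmn*, *Acp5* and *Gusb*, which encode an endopeptidase, the tartrate-resistant phosphatase and beta-glucuronidase, rose by 1.75, 1.603 and 1.28. The lysosomal membrane genes *Lamp1* and *Lamp2* were at 0.46 and 0.59 and were not DEGs, although in both all MWCNT-treated rats exceeded all control rats.

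Genes of cholesterol and fatty acid synthesis and efflux were mostly higher by less than the DEG threshold. Of 22 genes 4 were upregulated, 0 were downregulated and the median log2 fold change was 0.70. *Fasn*, the fatty acid synthase gene, went from 146 ± 19.1 to 362 ± 55.3 TPM, and *Soat1*, which esterifies cholesterol for storage, from 53.1 ± 6.05 to 133 ± 15.2 TPM (SD, n = 3), with log2 fold changes of 1.46 and 1.47. The other 2 depended on single rats, since *Ch25h*, the cholesterol hydroxylase gene, was at 0.94 (FDR = 0.00703) without control rat 1, and *Sqle*, the squalene epoxidase gene, was at 0.88 (FDR = 0.000999) without control rat 2 and 0.95 (FDR = 0.00256) without MWCNT rat 1. In 19 of the 22 genes the 3 MWCNT-treated rats lay above all control rats, where 26.2% of all tested genes did so.

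Chemokines that attract monocytes were sharply higher. Of 17 tested CC chemokine genes 9 were upregulated and 0 downregulated, with a median log2 fold change of 1.35. *Ccl2*, the main monocyte attractant, was at 3.60, 8.46 and 5.34 TPM in the control rats and 83.4, 78.0 and 55.3 TPM in the MWCNT-treated rats (log2 fold change 3.805 ± 0.27 (SE), FDR = 2.2e-05). *Ccl7*, which acts on the same receptor, was at 2.55, 4.07 and 2.39 TPM in the control rats and 47.3, 51.0 and 51.3 TPM in the MWCNT-treated rats (log2 fold change 4.20 ± 0.19 (SE), FDR = 3.62e-06). *Ccl9* was at 11.3, 17.1 and 26.5 TPM in the control rats and 308, 324 and 279.5 TPM in the MWCNT-treated rats, the highest level of the 9 (log2 fold change 4.21 ± 0.24 (SE), FDR = 7.08e-06). In these genes every MWCNT-treated rat lay above every control rat. The remaining upregulated members were *Ccl3* and *Ccl4*, which act on monocytes and T cells, at 2.12 and 1.35, *Ccl17* and *Ccl22*, which attract T helper 2 and regulatory T cells, at 2.12 and 2.60, and *Ccl12* and *Ccl1*. *Ccl1* had counts of 1, 1 and 1 in the controls, against 45, 63 and 25 after MWCNT, a ratio of 41.0 with a 95% counting interval of 13.7 to 201. Opposite values were seen for *Ccl5*, a product of T and NK cells, and *Ccl21*, a product of lymphatic endothelium, with 319 ± 66.9 to 152 ± 14.96 TPM and 337 ± 33.4 to 190.1 ± 30.5 TPM (SD, n = 3). Neither was a DEG at log2 fold changes of -0.92 and -0.68, the groups did not overlap in either, and 1 CC chemokine gene was downregulated without control rat 3. The eosinophil attractants *Ccl11* and *Ccl24* were at -0.18 and -0.41 and were not called.

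Of 14 tested CXC and CX3C chemokine genes 6 were upregulated and 0 downregulated, with a median of 0.93. *Cxcl6*, a neutrophil attractant, was at 2.07, 1.95 and 1.75 TPM in the control rats and 26.8, 25.9 and 22.3 TPM in the MWCNT-treated rats (log2 fold change 3.84 ± 0.16 (SE), FDR = 2.76e-06). *Cxcl2*, another neutrophil attractant, and *Pf4*, the platelet factor 4 gene, rose by 1.84 and 1.47. The count was 3 without control rat 1, since *Cxcl1* and *Cxcl10* were then at 0.86 (FDR = 0.0313) and 1.26 (FDR = 0.057), and *Cxcl11*, called at 2.04, was at 1.67 (FDR = 0.112) without control rat 1, 1.66 (FDR = 0.078) without control rat 3, 1.65 (FDR = 0.115) without MWCNT rat 2 and 2.09 (FDR = 0.055) without MWCNT rat 3. Of these, *Cxcl10* and *Cxcl11* are induced by interferon gamma and attract T cells, and their relative *Cxcl9* was at 0.40 and was not called. The neutrophil markers themselves were divided. *S100a9*, a calcium-binding protein of granulocytes and macrophages, rose from 102 ± 10.2 to 241 ± 17.6 TPM, and *Trem1* and *Il1r2*, an activating receptor and a decoy receptor for interleukin-1, rose by 1.63 and 1.66. *S100a8*, the partner of *S100a9*, was at 0.26, and *Csf3r*, *Cxcr2* and *Mmp8* were at -0.06, 0.06 and -0.02, so that 3 of 8 tested markers were upregulated and their median was 0.18. The granule genes *Mpo* and *Elane* had at most 2 counts in any rat.

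Of 25 tested cytokine and Toll-like receptor genes 8 were upregulated and 0 downregulated, with a median log2 fold change of 0.81, and limma on log2(TPM + 1) called 5. The largest rise was that of *Il1rn*, the natural antagonist of interleukin-1, at 22.3, 31.0 and 27.4 TPM in the control rats and 132, 141 and 103 TPM in the MWCNT-treated rats (log2 fold change 2.37 ± 0.15 (SE), FDR = 1.37e-05). The agonists *Il1b* and *Il1a* were at 0.23 and -0.05 with overlapping groups. *Il18*, a cytokine processed by the inflammasome, rose by 1.10, and *Osm*, which belongs to the interleukin-6 family, by 1.70. *Cd14*, the lipopolysaccharide co-receptor, was at 43.1, 47.4 and 44.5 TPM in the control rats and 135, 167 and 125 TPM in the MWCNT-treated rats (log2 fold change 1.81 ± 0.12 (SE), FDR = 1.55e-05). Among the receptors, *Tlr5* for flagellin and *Tlr8* for RNA rose by 1.41 and 1.20, together with a gene matched to Tlr13 by an older symbol, at 1.35. *Tlr1* was called at 1.01 but was at 1.00 (FDR = 0.0252) without control rat 2, 0.90 (FDR = 0.023) without control rat 3 and 0.87 (FDR = 0.0373) without MWCNT rat 2. *Tlr4*, the lipopolysaccharide receptor, was at 0.42 and was not called. *Il33*, an alarmin stored in alveolar epithelial nuclei, had values of 406, 395 and 307 TPM in the control rats and 214, 168 and 192 TPM in the MWCNT-treated rats, and its log2 fold change of -0.81 did not reach the threshold. *Zfp36*, which destabilizes cytokine mRNAs, was at -0.25 with overlapping groups.

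Complement and acute phase genes, which are best known as liver products, were upregulated in 15 of 23 tested genes and downregulated in 1, with a median of 1.496. The central component *C3* was at 88.5, 96.8 and 129.6 TPM in the control rats and 402, 438 and 405 TPM in the MWCNT-treated rats (log2 fold change 2.13 ± 0.13 (SE), FDR = 1.2e-05). *Cfi*, the protease that inactivates C3b, was at 9.49, 6.06 and 15.1 TPM in the control rats and 84.97, 105 and 84.4 TPM in the MWCNT-treated rats (log2 fold change 3.31 ± 0.25 (SE), FDR = 2.93e-05), and the terminal components *C6* and *C5* rose by 2.75 and 1.79. *C2* and *C4a* of the classical pathway rose by 1.496 and 1.57, where *C4a* has a near-identical copy with which reads may be shared. Of the acute phase genes, *Lcn2*, an iron-scavenging lipocalin, was at 8.92, 17.3 and 12.2 TPM in the control rats and 74.1, 78.0 and 96.5 TPM in the MWCNT-treated rats (log2 fold change 2.85 ± 0.21 (SE), FDR = 2.38e-05), and the hemoglobin-binding haptoglobin gene *Hp* went from 49.1 ± 7.13 to 174 ± 4.51 TPM (SD, n = 3). *Hpx*, which binds heme, *Ptx3*, a soluble pattern receptor, and *Itih4* rose by 1.52, 1.74 and 1.67. *A2m*, a broad protease inhibitor, had counts of 51, 0 and 33 in the controls, against 542, 868 and 264 after MWCNT and a log2 fold change of 4.18, with 1 control rat at 0. The single downregulated member was *Serpina1*, the inhibitor of neutrophil elastase, at 35.5, 34.0 and 28.6 TPM in the control rats and 9.95, 8.48 and 13.2 TPM in the MWCNT-treated rats (log2 fold change -1.50 ± 0.16 (SE), FDR = 0.000164), and no MWCNT-treated rat reached the lowest control rat. The list had 13 to 17 upregulated members with 1 rat left out.

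Of 14 tested genes of alternative macrophage activation 8 were upregulated and 1 downregulated, with a median of 1.23. After *Retnla* the chitinase family led, with *Chia*, the acidic chitinase gene, at 96.5, 64.7 and 109 TPM in the control rats and 415, 506 and 443 TPM in the MWCNT-treated rats (log2 fold change 2.48 ± 0.17 (SE), FDR = 1.94e-05), and *Chi3l1* at 158 ± 20.5 to 608 ± 48.4 TPM (SD, n = 3). The lectin receptor genes *Clec10a* and *Mrc1* rose by 1.53 and 1.26, and *Arg1*, the arginase of alternatively activated macrophages in rodents, by 1.19. Against this direction, *Alox15*, a lipoxygenase induced by interleukin-4 in macrophages, was at 26.1, 25.4 and 16.9 TPM in the control rats and 9.06, 6.59 and 8.35 TPM in the MWCNT-treated rats, with a log2 fold change of -1.38 ± 0.19 (SE), FDR = 0.000593, and no MWCNT-treated rat reached the lowest control rat. *Il4r*, the receptor subunit for interleukin-4, was at -0.57 with overlapping groups.

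MHC class II genes, whose products present antigen to CD4 T cells, were upregulated in 8 of 10 cases and downregulated in 0, with a median log2 fold change of 1.32. Their values lay close together. *RT1-Da* was at 428, 474 and 450.4 TPM in the control rats and 1059, 1099 and 922 TPM in the MWCNT-treated rats (log2 fold change 1.33 ± 0.09 (SE), FDR = 1.57e-05), and the other classical chains *RT1-Bb*, *RT1-Db1* and *RT1-Ba* were at 1.53, 1.36 and 1.25. The peptide-loading genes *RT1-DMa* and *RT1-DMb* rose by 1.69 and 1.41, and *Ciita*, the transactivator of the class, by 1.24. *RT1-DOa* and *RT1-DOb*, which restrain peptide loading and are mainly B-cell genes, were at 0.63 and 0.76 and were not called. Interferon-stimulated genes, which respond to antiviral signals, gave no such count. Of 19 tested genes 0 were called by edgeR or DESeq2 in either direction, 6 had an unadjusted p below 0.05 by edgeR, and 2 were upregulated without control rat 2. The median was 0.03, and it was -0.08 with scaling by library size only. *Mx1*, an antiviral GTPase, had the highest log2 fold change of the list at 0.85, and *Isg15*, a ubiquitin-like modifier, the lowest at -0.34.

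Lymphocyte markers had values of both signs within lists. Of 16 T and NK cell markers 4 were upregulated and 0 downregulated, but the median was -0.50, and 1 was downregulated without control rat 3 or MWCNT rat 1. By limma on log2(TPM + 1) 2 were upregulated and 1 downregulated. The upregulated genes were *Cd4*, the co-receptor of helper T cells, at 52.2, 61.9 and 62.9 TPM in the control rats and 127, 131 and 103 TPM in the MWCNT-treated rats (log2 fold change 1.17 ± 0.11 (SE), FDR = 0.000107), *Foxp3*, the transcription factor of regulatory T cells, at 1.42, 1.00 and 0.833 TPM in the control rats and 2.75, 3.44 and 2.64 TPM in the MWCNT-treated rats (log2 fold change 1.58 ± 0.26 (SE), FDR = 0.00145), the co-stimulatory gene *Icos*, and *Ctla4*, an inhibitory receptor. Macrophages of the rat also carry CD4. *Icos* rose by 1.41, while *Ctla4* was called at 1.74 and missed the FDR threshold at 1.31 (FDR = 0.0588) without MWCNT rat 2. Several genes of cytotoxic cells had negative log2 fold changes that did not reach the DEG threshold. They were -0.90 for *Gzma*, -0.82 for *Nkg7*, -0.82 for *Cd8a*, -0.82 for *Klrd1* and -0.76 for *Prf1*. Others went the other way without being called. *Cd8b* was at 0.37 with all MWCNT-treated rats above all control rats, and *Gzmb* was at 0.20 with overlapping groups. In 10 of the 16 markers the MWCNT-treated rats lay below all control rats, where 25.6% of all tested genes did so.

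Among 15 B and plasma cell markers 3 were downregulated (20%) and 1 was upregulated (6.67%), with a median of -0.01. Of all tested genes 3.03% and 6.07% were, so the upregulated share was near that of all genes. *Cd79b*, a chain of the B-cell receptor, was at 19.2, 22.3 and 17.8 TPM in the control rats and 9.74, 5.50 and 5.20 TPM in the MWCNT-treated rats (log2 fold change -1.40 ± 0.24 (SE), FDR = 0.00213). *Pax5*, the factor of B-cell identity, was called at -1.97 on at most 32 counts in a rat and was at -2.10 (FDR = 0.0932) without control rat 1, -1.60 (FDR = 0.147) without control rat 2, -2.19 (FDR = 0.0518) without control rat 3, -1.63 (FDR = 0.132) without MWCNT rat 1 and -1.52 (FDR = 0.114) without MWCNT rat 3. The number of upregulated markers, 1, was 2 without control rat 3 or MWCNT rat 3. *Jchain*, which joins secreted antibodies of plasma cells into polymers, rose instead, from 217 ± 29.8 to 485 ± 163 TPM (SD, n = 3; log2 fold change 1.31 ± 0.24 (SE), FDR = 0.00253), and *Mzb1* of the same cells was at 0.90 without being called. The number of downregulated markers was 5 without MWCNT rat 1 or with scaling by library size only.

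Mast cell markers, whose downregulated number ran from 0 to 2 with 1 rat left out, had 2 upregulated and 1 downregulated of 8 tested genes, with a median of 1.29, and the upregulated number ran from 0 without control rat 1 or MWCNT rat 2, over 1 without control rat 2, to 4 without control rat 3 or MWCNT rat 3. *Cpa3*, a mast cell protease gene, had counts of 9, 6 and 20 in the controls, against 37, 151 and 19 after MWCNT, with the highest value in MWCNT rat 2 and overlapping groups. It was called at 2.33 and was at 2.11 (FDR = 0.101) without control rat 1, 2.07 (FDR = 0.0823) without control rat 2 and 1.31 (FDR = 0.12) without MWCNT rat 2. *Tpsb2*, a tryptase gene, was called at 2.20 and was at 1.98 (FDR = 0.118) without control rat 1, 2.10 (FDR = 0.0891) without control rat 2 and 1.08 (FDR = 0.156) without MWCNT rat 2. *Kit*, the stem cell factor receptor, which capillary endothelium also carries, was called at -1.03 and was at -0.89 (FDR = 0.0164) without control rat 1, -0.94 (FDR = 0.0126) without control rat 2 and -0.91 (FDR = 0.0146) without MWCNT rat 2.

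The epithelium of the alveoli showed higher levels of type 2 genes beside lower levels of type 1 genes. Of 12 type 2 markers 5 were upregulated and 0 downregulated, with a median of 0.91, and in all 12 the MWCNT-treated rats lay above the control rats, where 26.2% of all tested genes did so. The list summed to 31776 to 35287 TPM in the control rats and 59160.5 to 61691 TPM in the MWCNT-treated rats. *Sftpa1* was at 5425, 4878 and 6428 TPM in the control rats and 13861, 15034 and 13793 TPM in the MWCNT-treated rats (log2 fold change 1.497 ± 0.11 (SE), FDR = 2.6e-05), and *Sftpd*, a second collectin of surfactant, went from 314 ± 76.8 to 703 ± 25.1 TPM (SD, n = 3; log2 fold change 1.31). *Muc1*, a membrane mucin, was at 249.6, 226 and 244 TPM in the control rats and 680.2, 763 and 649.6 TPM in the MWCNT-treated rats (log2 fold change 1.68 ± 0.08 (SE), FDR = 5.4e-06). *Lamp3*, of the lamellar bodies in which surfactant is stored, and *Lpcat1*, which makes surfactant phospholipid, rose by 1.25 and 1.10. *Sftpc*, the type 2 gene with the highest level, was at 19293, 19827 and 21304 TPM in the control rats and 34671, 35923 and 35960.4 TPM in the MWCNT-treated rats, and its log2 fold change of 0.96 ± 0.08 (SE), FDR = 4.41e-05 fell just short of the DEG threshold. *Sftpb*, the other hydrophobic surfactant protein gene, was at 0.47, and *Nkx2-1*, the transcription factor of lung epithelium, at 0.49. The collectin genes *Sftpa1* and *Sftpd* thus had higher log2 fold changes than the hydrophobic surfactant protein genes, a difference between genes that was not tested.

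Type 1 markers were below the control range in 12 of 14 genes, where 25.6% of all tested genes were, but 1 passed the DEG threshold, and the median was -0.53. Their summed level was 8933 to 9583 TPM in the control rats and 5785 to 6628 TPM in the MWCNT-treated rats. *Cav1*, the main protein of caveolae in type 1 and endothelial cells, was called at 1194, 1192 and 1090.1 TPM in the control rats and 502, 402 and 606 TPM in the MWCNT-treated rats (log2 fold change -1.06 ± 0.13 (SE), FDR = 0.000299), and it was at -0.92 (FDR = 0.000377) without MWCNT rat 2. The number of downregulated markers was 0 without that rat and 2 without control rat 3 or MWCNT rat 3. The water channel gene *Aqp5* was at 688, 739.6 and 699 TPM in the control rats and 381, 313 and 396 TPM in the MWCNT-treated rats, with a log2 fold change of -0.82, and *Ager*, the receptor for advanced glycation end products that is most abundant in type 1 cells, at -0.45. *Hopx* and *Rtkn2* were at -0.49 and -0.97. *Cldn18*, a tight junction gene that type 2 cells also express, was the exception at 0.44, with all MWCNT-treated rats above all control rats.

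**Figure D3:**
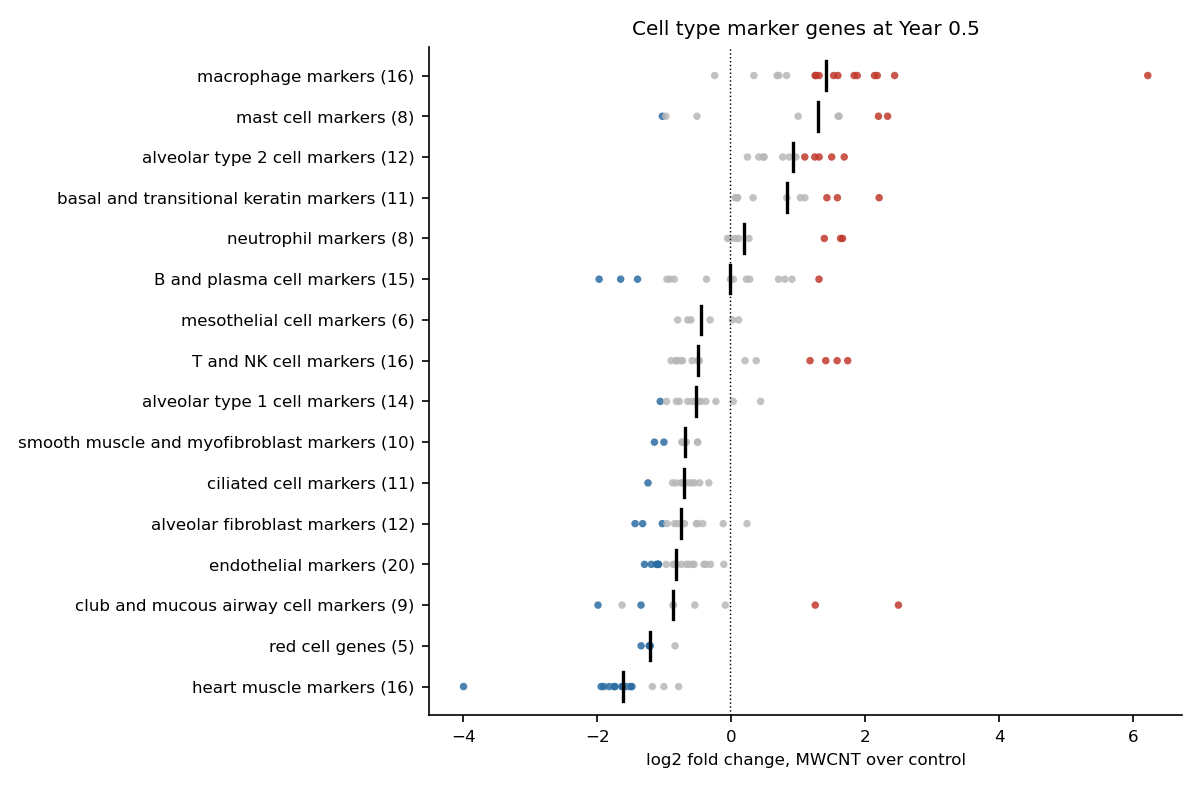
Each row is a list of cell type markers with the number of genes tested, each point the log2 fold change of 1 gene at Year 0.5 (red, upregulated; blue, downregulated; grey, not called), each black bar the median of the list and the dotted line the median of all tested genes. Medians run from -1.61 for heart muscle markers to 1.42 for macrophage markers, and type 2 and type 1 markers lie on opposite sides.

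Among airway genes, 2 of 9 tested club and mucous cell markers were upregulated and 2 downregulated. *Bpifb1*, a secreted defense protein, was at 11.7, 9.09 and 47.0 TPM in the control rats and 100.5, 118 and 126 TPM in the MWCNT-treated rats (log2 fold change 2.49 ± 0.49 (SE), FDR = 0.00387), and *Pigr*, which carries antibodies across epithelium, went from 620.1 ± 80.0 to 1335 ± 64.4 TPM (SD, n = 3; log2 fold change 1.25). *Scgb1a1*, the club cell secretory protein gene, was at 31244, 20594 and 29412 TPM in the control rats and 15208, 11773 and 13171 TPM in the MWCNT-treated rats, with a log2 fold change of -0.87 that was not called. *Cyp2f4*, a club cell cytochrome, fell from 89.9 ± 38.6 to 32.1 ± 11.2 TPM (SD, n = 3; log2 fold change -1.35). *Scgb3a1* was called at -1.99, with control rat 3 at 220.2 TPM and the other control rats at 58.6 and 35.3 TPM, and it was at -0.85 (FDR = 0.0249) without control rat 3, -1.90 (FDR = 0.0838) without MWCNT rat 2 and -1.86 (FDR = 0.0807) without MWCNT rat 3. The number of downregulated markers was 1 without control rat 3, MWCNT rat 2 or MWCNT rat 3, 1 in the model of all 18 rats, and 4 by limma on log2(TPM + 1). Ciliated cell markers had a median of -0.70 with 1 of 11 downregulated, against 3.03% of all tested genes, and 2 were downregulated without control rat 2. The called gene was *Tppp3*, a tubulin-binding protein, at 1169.8 ± 124 to 447 ± 73.0 TPM (SD, n = 3; log2 fold change -1.25 ± 0.12 (SE), FDR = 8.9e-05). Its control level was far above that of every other marker of the list, the next being *Rsph1* at 31.0 TPM. Which cells the *Tppp3* RNA came from was not tested. The dynein and tektin genes of the list lay between -0.88 for *Tekt4* and -0.34 for *Dnah5*. In the list of basal and transitional keratin genes 3 of 11 were upregulated and 0 downregulated. These were not the keratins but *Lgals3*, a galectin that macrophages also make, at 267, 304 and 347 TPM in the control rats and 1269.5, 1434 and 1119.6 TPM in the MWCNT-treated rats (log2 fold change 2.21 ± 0.12 (SE), FDR = 7.1e-06), the tight junction gene *Cldn4* at 11.6 ± 2.93 to 31.1 ± 9.36 TPM, and *Sfn* at 6.36 ± 0.812 to 15.3 ± 5.15 TPM (SD, n = 3). *Krt8*, *Krt7*, *Krt18* and *Krt19*, the keratins of simple epithelium, were between 0.06 and 0.09 with overlapping groups.

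Markers of the vessel wall and of the stroma were lower. Of 20 tested endothelial markers 6 were downregulated and 0 upregulated, with a median of -0.83. In 18 of the 20 the MWCNT-treated rats lay below all control rats, where 25.6% of all tested genes did so. *Plvap*, which forms the diaphragms of fenestrated capillaries, was at 2463, 2459 and 1925 TPM in the control rats and 950.0, 665 and 1098 TPM in the MWCNT-treated rats (log2 fold change -1.20 ± 0.17 (SE), FDR = 0.000723). *Aplnr*, the apelin receptor of capillary endothelium, was at 201, 220.3 and 139 TPM in the control rats and 71.2, 54.2 and 81.5 TPM in the MWCNT-treated rats (log2 fold change -1.30 ± 0.18 (SE), FDR = 0.000743). The other DEGs were *Kdr*, which encodes the main receptor for vascular endothelial growth factor, *Tek*, the angiopoietin receptor, *Gpihbp1*, which anchors lipoprotein lipase, and *Ca4*, a carbonic anhydrase of alveolar capillaries. *Kdr*, *Tek* and *Gpihbp1* were at -0.99 (FDR = 0.00345), -0.94 (FDR = 0.000713) and -0.88 (FDR = 0.000685) without MWCNT rat 2, and *Ca4* was at -0.98 (FDR = 0.00473) without control rat 1 and -0.95 (FDR = 0.00262) without MWCNT rat 2, so that 2 of 20 were downregulated without MWCNT rat 2. *Cldn5* and *Cdh5*, the junction genes of endothelium, were at -0.84 and -0.82, and *Ephb4*, of venous endothelium, at -0.67, none of them a DEG. *Ramp2*, a subunit of the adrenomedullin receptor in vessels, was called at -1.04 and was at -0.99 (FDR = 0.00251) without control rat 1, -0.98 (FDR = 0.00155) without control rat 2 and -0.92 (FDR = 0.000733) without MWCNT rat 2.

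Of 12 alveolar fibroblast markers 3 were downregulated, with a median of -0.75. *Slc7a10*, an amino acid transporter, was at 56.0, 72.6 and 57.3 TPM in the control rats and 21.4, 15.8 and 25.3 TPM in the MWCNT-treated rats (log2 fold change -1.44 ± 0.16 (SE), FDR = 0.000241), and *G0s2*, an inhibitor of lipid breakdown, at 269 ± 49.0 to 97.8 ± 27.9 TPM (SD, n = 3; log2 fold change -1.33). The call of *Fgfr4*, a fibroblast growth factor receptor, at -1.03 did not hold, at -0.98 (FDR = 0.000636) without control rat 2, -0.95 (FDR = 0.000507) without MWCNT rat 2 and -0.999 (FDR = 0.000738) without MWCNT rat 3. *Gsn*, a gelsolin that severs actin filaments, was downregulated from 3858 ± 429 to 1614 ± 212 TPM (SD, n = 3; log2 fold change -1.11 ± 0.11 (SE), FDR = 0.000122). All 10 smooth muscle markers were below the control range after MWCNT, where 25.6% of all tested genes were. Their median was -0.70, and the actin genes *Acta2* and *Actg2* were at -0.74 and -1.01. *Actg2* and *Cnn1*, a calponin, were the 2 downregulated markers, but *Cnn1* was at -0.85 (FDR = 0.00697) without control rat 3 and *Actg2* at -0.79 (FDR = 0.000779) without control rat 3, -0.95 (FDR = 0.0083) without MWCNT rat 2 and -0.97 (FDR = 0.00757) without MWCNT rat 3, which left 0 of 10 without control rat 3 and 1 without MWCNT rat 2 or MWCNT rat 3. Of 6 mesothelial markers edgeR called 0, DESeq2 called 0 and 0 had an unadjusted p below 0.05, with a median of -0.46, and 2 were downregulated without control rat 1.

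Among genes with a CPM of at least 5 in the higher group, the largest fall was that of *Dlk1* (ENSRNOG00000019584, chromosome 6, 133552821 to 133583751 in Rnor_6.0), an imprinted gene whose product is a membrane protein related to Notch ligands. It was at 52.1, 78.7 and 50.4 TPM in the control rats and 1.01, 1.08 and 2.60 TPM in the MWCNT-treated rats, so that the highest MWCNT-treated rat was 19.3 times below the lowest control rat, and the log2 fold change was -5.15 ± 0.31 (SE), FDR = 9.96e-06. *Serpinb10*, an intracellular protease inhibitor, was at 32.1, 34.3 and 29.8 TPM in the control rats and 7.22, 2.21 and 4.44 TPM in the MWCNT-treated rats (log2 fold change -2.69 ± 0.31 (SE), FDR = 0.000254). *Esm1*, a proteoglycan secreted by endothelial cells, was at 169, 165 and 95.9 TPM in the control rats and 35.4, 17.0 and 32.4 TPM in the MWCNT-treated rats (log2 fold change -2.21 ± 0.28 (SE), FDR = 0.00044). In these genes, too, the groups were separate. The somatostatin receptor gene *Sstr1* and *Acoxl*, an acyl-CoA oxidase-like gene, had log2 fold changes of -2.20 and -2.15, and *Bmp15*, a growth factor of the transforming growth factor family, *Sh3rf2* and *LOC100912228* were at -1.80, -1.74 and -1.97.

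Muscle genes made up 5 of the 15 largest falls, namely *Ckm*, *Tnni3*, *Casq2*, *Myoz2* and *Myl7*, and they came with the heart muscle list. Of its 16 tested genes 12 were downregulated and 0 upregulated, with a median of -1.61. The troponin gene *Tnni3* was at 45.3, 28.7 and 111 TPM in the control rats and 12.96, 12.9 and 19.0 TPM in the MWCNT-treated rats (log2 fold change -1.90 ± 0.44 (SE), FDR = 0.00928), and *Actc1*, the cardiac actin gene, at 155, 88.3 and 274 TPM in the control rats and 59.9, 44.4 and 48.5 TPM in the MWCNT-treated rats (log2 fold change -1.62 ± 0.34 (SE), FDR = 0.00534). In both genes control rat 3 was the highest, and all MWCNT-treated rats lay below all control rats. In the model of all 18 rats, in which all groups share 1 estimate of the spread, 2 of the 16 were called (*Actc1* among them), and 3 at an FDR below 0.01 in the fit of 6 rats. *Tnni3* (-1.90, FDR = 0.0795), *Casq2* (FDR = 0.0955), *Myl7* (FDR = 0.192), *Ckm* (FDR = 0.0806) and *Myoz2* (FDR = 0.157) were not called in that model. In the fit of 6 rats the number called was 6 without control rat 3 or without MWCNT rat 1 and 5 without MWCNT rat 2. *Ckm*, the muscle creatine kinase gene, was called at -2.13 and was at -1.90 (FDR = 0.0535) without MWCNT rat 2, and *Myoz2*, called at -1.82, was at -0.91 (FDR = 0.0756) without control rat 3, -1.89 (FDR = 0.0638) without MWCNT rat 1, -1.84 (FDR = 0.0782) without MWCNT rat 2 and -1.71 (FDR = 0.0818) without MWCNT rat 3. The part of heart or vessel wall muscle in the dissected pieces was not tested.

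Among DEGs, hemoglobin genes had the largest falls by level. Of 5 tested red cell genes 4 were downregulated and 0 upregulated, with a median of -1.22, and 1 was downregulated without MWCNT rat 2. *Hba-a1* was at 10658, 10645 and 8656 TPM in the control rats and 4012, 2235 and 5483 TPM in the MWCNT-treated rats (log2 fold change -1.22 ± 0.26 (SE), FDR = 0.00597), and *Hbb* and *Hba-a2* had log2 fold changes of -1.22 and -1.23, where the alpha genes are near-identical copies among which reads may be split, as may those of *Hbb* and of the RT1 genes above. MWCNT rat 2 was the lowest, and without it the 3 genes were at -0.93 (FDR = 0.00255), -0.92 (FDR = 0.00244) and -0.94 (FDR = 0.00328). *Alas2*, which makes heme in red cell precursors, was the member that held without that rat, at 43.4 ± 6.12 to 15.7 ± 7.44 TPM (SD, n = 3; log2 fold change -1.35 ± 0.29 (SE), FDR = 0.00657). Red cell genes thus fell beside the endothelial genes, and MWCNT rat 2 was lowest in both *Plvap* and *Hba-a1*. The amount of blood in each piece was not tested.

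Metallothioneins, small cysteine-rich proteins that bind zinc and copper, separated by gene. *Mt3*, known as the brain form, was at 0.582, 0.698 and 0.327 TPM in the control rats and 37.0, 48.3 and 17.0 TPM in the MWCNT-treated rats (log2 fold change 6.05 ± 0.58 (SE), FDR = 9.28e-05), from counts of at most 2 in the control rats. *Mt2A* went from 54.2 ± 31.0 to 126 ± 16.8 TPM (SD, n = 3; log2 fold change 1.36 ± 0.32 (SE), FDR = 0.00947), and *Mt1* from 56.0 ± 11.4 to 99.9 ± 9.06 TPM (SD, n = 3), at 0.98 just short of the DEG threshold. On the TPM scale, which is per length, the level of *Mt3* was 0.956% of that of *Mt1* in control rats and 34.1% in MWCNT-treated rats. Of the 12 tested genes of the list 2 were upregulated and 0 downregulated, with a median of 0.48, and the number was 3 to 4 with 1 rat left out, the highest without control rat 3. Near the threshold lay the zinc importer gene *Slc39a8*, at 0.98, and *Mtf1*, the zinc-sensing transcription factor, at 0.98 with overlapping groups, which was called without control rat 1 or MWCNT rat 2. The zinc exporter gene *Slc30a1* was at -0.03. The 3 metallothionein genes lie close together, and their upstream sequences are shown because the genes responded so unequally. The 250 bases before each start in RefSeq (build GRCr8) are given from 5′ to 3′ on the minus strand, at chr19:10832976-10833225 for *Mt1*, chr19:10838709-10838958 for *Mt2A* and chr19:10856081-10856330 for *Mt3*. Capitals mark the core of the metal response element, TGCACNC or TGCGCNC on either strand.
Mt1: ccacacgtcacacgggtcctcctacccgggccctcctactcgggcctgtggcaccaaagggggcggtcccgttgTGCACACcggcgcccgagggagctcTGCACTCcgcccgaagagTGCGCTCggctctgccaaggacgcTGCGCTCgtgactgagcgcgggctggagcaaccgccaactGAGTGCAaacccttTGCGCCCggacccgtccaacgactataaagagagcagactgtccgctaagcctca
Mt2A: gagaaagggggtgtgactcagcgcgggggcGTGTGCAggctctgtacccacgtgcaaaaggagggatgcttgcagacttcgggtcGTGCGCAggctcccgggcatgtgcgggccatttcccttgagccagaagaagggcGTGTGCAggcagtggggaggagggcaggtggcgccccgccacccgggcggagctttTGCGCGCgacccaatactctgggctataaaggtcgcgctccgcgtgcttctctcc
Mt3: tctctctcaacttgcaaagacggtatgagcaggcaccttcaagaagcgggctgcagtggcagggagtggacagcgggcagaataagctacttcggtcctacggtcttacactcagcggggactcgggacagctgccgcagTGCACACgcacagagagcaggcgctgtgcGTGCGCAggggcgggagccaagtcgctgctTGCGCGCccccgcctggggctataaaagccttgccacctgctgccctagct
The core occurred 6 times in *Mt1*, 4 times in *Mt2A* and 3 times in *Mt3*, so the gene with the largest rise had the fewest matches. In windows of 300 bases around the start (250 before and 50 after), 24.2% of all 33469 promoters of the table had at least 1 match, as did 7 of the 10 tested genes of the list that had a promoter there. A match of these letters describes the sequence only.

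Peroxidase and NADPH oxidase genes, which make or use reactive oxygen species, were upregulated in 9 of 15 cases and downregulated in 0, with a median of 1.20. After *Lpo*, the epithelial oxidase gene *Duox1* was at 2.97, 2.87 and 4.28 TPM in the control rats and 13.4, 16.9 and 17.2 TPM in the MWCNT-treated rats (log2 fold change 2.38 ± 0.16 (SE), FDR = 1.83e-05), and its maturation factor *Duoxa1* rose by 1.79. The subunits of the phagocyte oxidase rose together, *Cybb* from 103.8 ± 6.75 to 370.3 ± 71.1 TPM (SD, n = 3), and *Ncf1* and *Cyba* by 1.49 and 1.20. *Noxo1*, an organizer of NOX1, an oxidase other than that of *Duox1*, rose by 1.91. *Ncf4*, called at 1.08, was at 0.92 (FDR = 0.000736) without control rat 1. Of the superoxide dismutases only the mitochondrial *Sod2* rose, by 1.44, while the cytosolic *Sod1* and extracellular *Sod3* were at -0.15 and -0.60 and were not called. *Nox4*, an oxidase of fibroblasts, was at -0.47, and *Nos2*, the inducible nitric oxide synthase gene, at -0.04.

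NRF2 targets, the genes of the main antioxidant program, were mostly not called. Of 21 genes 2 were upregulated (9.52%) and 1 downregulated (4.76%), near the 6.07% and 3.03% of all tested genes, and the median was 0.22. *Slc7a11*, the cystine importer that feeds glutathione synthesis, was at 0.432, 0.0648 and 0.258 TPM in the control rats and 2.72, 2.73 and 2.13 TPM in the MWCNT-treated rats (log2 fold change 3.43 ± 0.41 (SE), FDR = 0.000302). *Hmox1*, which breaks down heme, was at 48.9, 50.0 and 49.6 TPM in the control rats and 136, 138 and 115 TPM in the MWCNT-treated rats (log2 fold change 1.54 ± 0.09 (SE), FDR = 8.64e-06). The classical targets *Nqo1*, *Gclm*, *Gclc* and *Txnrd1* were at 0.22, -0.22, -0.08 and 0.32, none of them a DEG. *Gsta3*, a glutathione transferase, was called lower at -1.03, and it was at -1.02 (FDR = 0.0561) without control rat 1, -0.80 (FDR = 0.057) without control rat 3, -1.01 (FDR = 0.0596) without MWCNT rat 2 and -0.99 (FDR = 0.0506) without MWCNT rat 3, so that 0 were downregulated without any 1 of control rats 1 and 3 and MWCNT rats 2 and 3. The xenobiotic enzymes pointed downward, with 4 of 14 cytochrome P450 and flavin monooxygenase genes downregulated, 0 upregulated and a median of -0.53. These 4 were the same in number whichever rat was left out. *Fmo2*, the main flavin monooxygenase of the lung, was at 481, 439.6 and 353 TPM in the control rats and 121, 110.3 and 198 TPM in the MWCNT-treated rats (log2 fold change -1.43 ± 0.20 (SE), FDR = 0.000774), and *Cyp4b1*, a fatty acid hydroxylase of the lung, at 848, 778 and 777 TPM in the control rats and 322, 231 and 348 TPM in the MWCNT-treated rats (log2 fold change -1.28 ± 0.13 (SE), FDR = 0.000127). *Fmo1* and *Cyp2e1* were downregulated at -1.29 and -1.41. The club cell genes given above were lower alongside them, and their part in the result was not tested.

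Most genes of cell division were called. Of 23 tested mitosis genes 20 were upregulated and 0 downregulated, with a median of 1.57, and the number ranged from 17 to 21 with 1 rat left out and was 13 by limma on log2(TPM + 1). *Cdk1*, the kinase that drives entry into mitosis, was at 6.64, 4.90 and 7.09 TPM in the control rats and 16.4, 22.4 and 14.8 TPM in the MWCNT-treated rats (log2 fold change 1.67 ± 0.21 (SE), FDR = 0.000442). *Ccna2*, a cyclin of S phase and mitosis, was at 1.73, 3.41 and 1.77 TPM in the control rats and 6.99, 9.82 and 6.67 TPM in the MWCNT-treated rats (log2 fold change 1.92 ± 0.30 (SE), FDR = 0.00112). *Top2a*, the topoisomerase that separates replicated chromosomes, was at 4.45, 4.56 and 4.50 TPM in the control rats and 11.5, 14.1 and 10.9 TPM in the MWCNT-treated rats (log2 fold change 1.58 ± 0.12 (SE), FDR = 2.94e-05). In all 3 genes the groups were separate. *Mki67*, a marker of cycling cells, went from 3.31 ± 0.282 to 9.02 ± 1.10 TPM (SD, n = 3; log2 fold change 1.59), and the cytokinesis gene *Anln*, the checkpoint kinases *Bub1b* and *Ttk*, and the spindle motor *Kif11* rose by 1.98, 1.82, 1.81 and 1.69. *Kif20a* and *Foxm1*, the transcription factor of the program, were at 0.92 and 0.78 with separate groups and were not called, and *Aurkb*, at -0.20, was the only one whose groups overlapped. The levels were low, and the whole list summed to 99.5 to 136 TPM in the control rats and 185 to 229 TPM in the MWCNT-treated rats.

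The DNA replication genes were less uniform. Of 19 genes 7 were upregulated (4 by limma on log2(TPM + 1)) and 0 downregulated, with a median of 0.64. *Rrm2*, the regulated subunit of ribonucleotide reductase, was at 4.82, 3.56 and 6.57 TPM in the control rats and 15.1, 17.9 and 12.8 TPM in the MWCNT-treated rats (log2 fold change 1.76 ± 0.24 (SE), FDR = 0.000653). The origin-licensing gene *Cdc6*, the replication gene *Mcm10* and the cyclin gene *Ccne1* rose by 1.87, 1.87 and 1.87. *Mcm5* rose by 1.49, whereas the other helicase subunits *Mcm2*, *Mcm3*, *Mcm4*, *Mcm6* and *Mcm7* were at 0.54, 0.70, 0.43, 0.83 and -0.09 and were not called. *Pcna*, the replication clamp, was at 0.38. Of 17 p53 targets and cyclin inhibitors 1 was called, *Cdkn2a*, on at most 16 counts in a rat, at 1.4003, and it was at 1.06 (FDR = 0.135) without control rat 1, 1.49 (FDR = 0.0759) without control rat 3, 1.29 (FDR = 0.116) without MWCNT rat 1, 1.598 (FDR = 0.0546) without MWCNT rat 2 and 1.33 (FDR = 0.0941) without MWCNT rat 3. DESeq2 and the model of all 18 rats called 0 of the 17, and the count was 0 without control rat 1 or MWCNT rat 2. The 1 call made up 5.88% of this list, where 6.07% of all tested genes were upregulated. *Cdkn1a*, the p21 gene, was at 63.8, 53.2 and 116 TPM in the control rats and 133, 143 and 139 TPM in the MWCNT-treated rats, with a log2 fold change of 0.98 ± 0.23 (SE), FDR = 0.0103, below the DEG threshold, and *Mdm2* was at -0.03.

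The upstream sequences of *Cdk1*, *Top2a* and *Mki67* are shown as examples of letters known from cell cycle promoters. Capitals mark the cell cycle homology region, TTTGAA or TTCGAA on either strand, and the CCAAT box on either strand, in the 250 bases before the start (RefSeq, build GRCr8, 5′ to 3′). They lie at chr20:19265043-19265292 on the plus strand for *Cdk1*, at chr10:84473094-84473343 on the minus strand for *Top2a* and at chr1:199952594-199952843 on the minus strand for *Mki67*. In *Mki67* a match of each kind overlaps in 1 run of capitals.
Cdk1: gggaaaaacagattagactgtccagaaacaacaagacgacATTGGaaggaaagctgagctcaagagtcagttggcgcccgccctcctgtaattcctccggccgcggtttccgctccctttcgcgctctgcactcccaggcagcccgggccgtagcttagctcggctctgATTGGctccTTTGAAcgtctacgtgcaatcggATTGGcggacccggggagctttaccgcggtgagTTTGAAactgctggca
Top2a: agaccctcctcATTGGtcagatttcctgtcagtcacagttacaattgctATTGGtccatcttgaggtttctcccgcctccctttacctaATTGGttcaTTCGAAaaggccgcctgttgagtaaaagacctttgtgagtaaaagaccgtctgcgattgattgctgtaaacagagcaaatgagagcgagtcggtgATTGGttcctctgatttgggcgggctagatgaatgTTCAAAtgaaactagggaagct
Mki67: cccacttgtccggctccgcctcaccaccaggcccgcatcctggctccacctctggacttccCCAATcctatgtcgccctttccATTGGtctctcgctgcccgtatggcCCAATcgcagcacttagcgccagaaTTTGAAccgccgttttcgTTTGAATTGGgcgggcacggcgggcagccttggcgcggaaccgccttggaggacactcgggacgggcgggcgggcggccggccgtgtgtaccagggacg
In each the cell cycle homology region occurred 2 times, and CCAAT occurred 3 times in *Cdk1* and 4 times in each of the others. Over the windows of 300 bases, 13 of the 18 mitosis genes with a promoter in the table (72.2%) had the first letters and 14 (77.8%) had CCAAT, against 19.7% and 37.5% of all promoters. Of 15 DNA replication genes 3 had the first and 10 had CCAAT. The mitosis genes *Aurka* and *Bub1*, which were upregulated too, had neither. A match of these letters describes the sequence only, and its part in the rise was not tested.

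Matrix-degrading enzymes changed in few members, but by large factors. Of 16 tested metalloproteinase and inhibitor genes 4 were upregulated and 0 downregulated, with a median of 0.34. Besides *Mmp12* these included *Mmp7*, matrilysin, with counts of 0, 1 and 0 in the controls, against 52, 77 and 51 after MWCNT, a ratio of 167 with a 95% counting interval of 29.5 to 6616, and *Mmp14*, a membrane-bound collagenase, at 65.8, 64.5 and 77.8 TPM in the control rats and 169, 184 and 148 TPM in the MWCNT-treated rats (log2 fold change 1.41 ± 0.10 (SE), FDR = 2.6e-05). *Mmp19*, called at 1.06, was at 0.96 (FDR = 0.000458) without MWCNT rat 2. The gelatinase genes *Mmp2* and *Mmp9* were at 0.39 and 0.46 with overlapping groups. *Timp1*, the most inducible of the inhibitors, was at 0.69 and was not called.

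Of 17 tested collagen genes 1 was upregulated and 0 were downregulated (1 without control rat 2), near the 6.07% and 3.03% of all genes, and the median was -0.04. The exception was *Col16a1*, a minor collagen that joins fibrils to the surrounding matrix, at 32.6, 37.4 and 43.8 TPM in the control rats and 95.1, 113 and 107 TPM in the MWCNT-treated rats (log2 fold change 1.61 ± 0.11 (SE), FDR = 1.95e-05). The fibrillar collagen genes *Col1a1* and *Col3a1* were at 0.49 and 0.59. Among 22 matrix and crosslinking genes 4 were upregulated and 0 downregulated, with a median of 0.20, and limma on log2(TPM + 1) called 2. *Thbs2*, a matricellular thrombospondin, was at 2.43, 2.74 and 3.63 TPM in the control rats and 15.5, 18.1 and 14.0 TPM in the MWCNT-treated rats (log2 fold change 2.58 ± 0.16 (SE), FDR = 1.15e-05), and its relative *Thbs1* at 51.8 ± 3.73 to 132 ± 40.9 TPM (SD, n = 3; log2 fold change 1.495). The proteoglycan gene *Vcan* rose by 1.41, and *Cthrc1*, a secreted protein of activated fibroblasts, was called at 1.15 and was at 0.92 (FDR = 0.0111) without control rat 2. *Fn1*, fibronectin, was at 259, 298 and 293 TPM in the control rats and 511, 531 and 467 TPM in the MWCNT-treated rats, with a log2 fold change of 0.97 ± 0.09 (SE), FDR = 6.9e-05, short of the DEG threshold, and the crosslinking enzyme genes *Lox* and *Loxl2* were at 0.47 and 0.05. *Postn*, periostin, was at -0.39 and was not called.

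Growth factor genes of the ERBB family, which signal through the epidermal growth factor receptor and its relatives, moved both ways. Of 13 genes 2 ligands were upregulated and 1 ligand and 1 receptor were downregulated, with a median of 0.40. *Areg*, amphiregulin, was at 2.74, 2.65 and 6.17 TPM in the control rats and 25.2, 29.1 and 11.6 TPM in the MWCNT-treated rats (log2 fold change 2.66 ± 0.42 (SE), FDR = 0.00126). *Ereg*, epiregulin, was at 2.23, 3.23 and 4.45 TPM in the control rats and 13.1, 15.7 and 6.57 TPM in the MWCNT-treated rats (log2 fold change 2.00 ± 0.35 (SE), FDR = 0.00236). The receptor gene *Erbb4* was at 1.39, 1.44 and 1.32 TPM in the control rats and 0.594, 0.216 and 0.584 TPM in the MWCNT-treated rats (log2 fold change -1.47 ± 0.37 (SE), FDR = 0.0133), and the other receptor genes *Egfr*, *Erbb2* and *Erbb3* were at 0.26, 0.06 and 0.52 and were not called. *Egf* was called at -1.17 and was at -0.99 (FDR = 0.039) without MWCNT rat 2, which left 1 downregulated gene, and limma on log2(TPM + 1) called 0 lower. Of the plasminogen system, *Plau*, the urokinase gene, went from 47.7 ± 4.28 to 103.9 ± 13.9 TPM, and its receptor gene *Plaur* from 11.6 ± 1.63 to 34.6 ± 2.87 TPM (SD, n = 3), with log2 fold changes of 1.27 ± 0.12 (SE), FDR = 7.3e-05, and 1.73 ± 0.14 (SE), FDR = 4.49e-05. The Wnt inhibitor gene *Wif1* was at -0.54 and was not called.

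**Figure D4:**
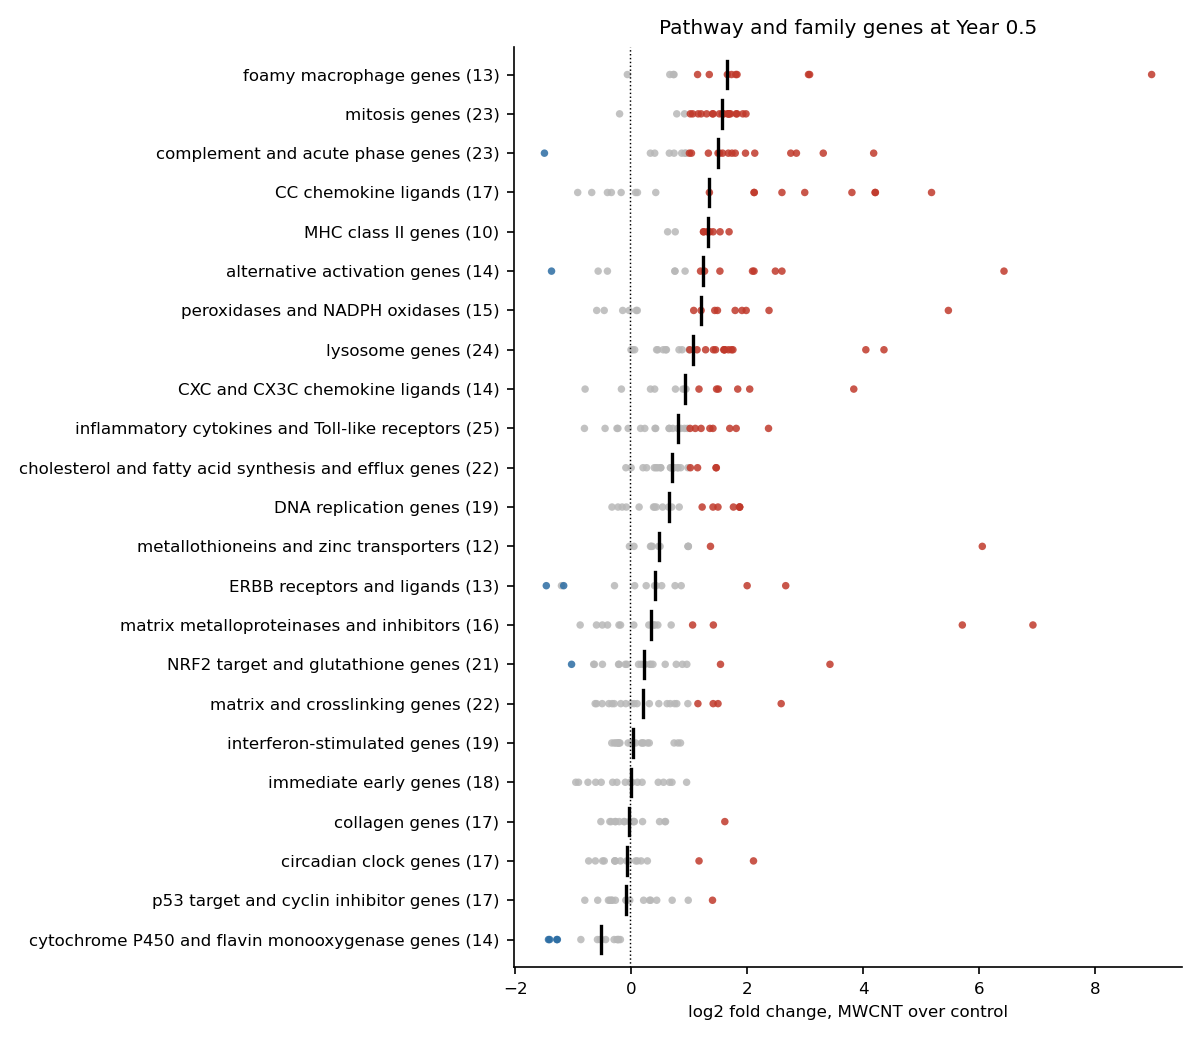
Each row is a list of pathway or family genes with the number of genes tested, each point the log2 fold change of 1 gene at Year 0.5 (red, upregulated; blue, downregulated; grey, not called), each black bar the median of the list and the dotted line the median of all tested genes. Foamy macrophage and mitosis genes have the highest medians, 1.66 and 1.57, while collagen, immediate early and interferon-stimulated genes lie around the median of all genes.

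To ask what was particular to Year 0.5, its treatment effect was set against the mean of the effects at Years 1 and 2, each taken against its own control rats, in 1 model of all 18 rats. At an FDR below 0.05 the effects differed in 5 of 14843 genes tested (0.0337%), 4 of them with the less positive effect at Year 0.5 (0.0269%) and 1 with the more positive effect (0.00674%), and DESeq2 called 70. An unadjusted p below 0.05 was found for 1515 genes by edgeR. *Fabp4* had log2 fold changes of 3.08 ± 0.19, 3.87 ± 0.19 and 5.19 ± 0.20 (SE) at Years 0.5, 1 and 2, a difference of -1.45 (FDR = 0.0205). *Ly6i*, a Ly6 family surface protein gene, had log2 fold changes of 1.81 ± 0.12, 2.38 ± 0.13 and 3.29 ± 0.13 (SE), a difference of -1.02 (FDR = 0.0101), while its level in the MWCNT-treated rats was 1103 ± 77.3 TPM at Year 0.5 and 1202 TPM at Year 2 and its level in the control rats went from 347 to 144 TPM. The other 3 were chosen for mention after their values were seen. *Tf*, transferrin, had log2 fold changes of 0.87 ± 0.10, 1.37 ± 0.10 and 2.19 ± 0.11 (SE), *Lhfpl2* had 0.86 ± 0.08, 1.4001 ± 0.08 and 1.93 ± 0.08 (SE), and *Npw*, a neuropeptide gene that was the only one with the more positive effect at Year 0.5, had 0.19 ± 0.08, -0.05 ± 0.08 and -1.03 ± 0.08 (SE). *Spp1*, the gene with the largest rise, did not pass this test and had log2 fold changes of 8.97 ± 0.44, 9.39 ± 0.46 and 9.24 ± 0.45 (SE). For the mitosis list, the median effect was 1.57 at Year 0.5 and 0.99 and 1.03 at Years 1 and 2, and 0 of its 23 genes passed the edgeR test of the difference, with 6 at an unadjusted p below 0.05. A p that misses the threshold does not show that the effects were alike. Rats of the later time points were older and had also received more doses.

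**Figure D5:**
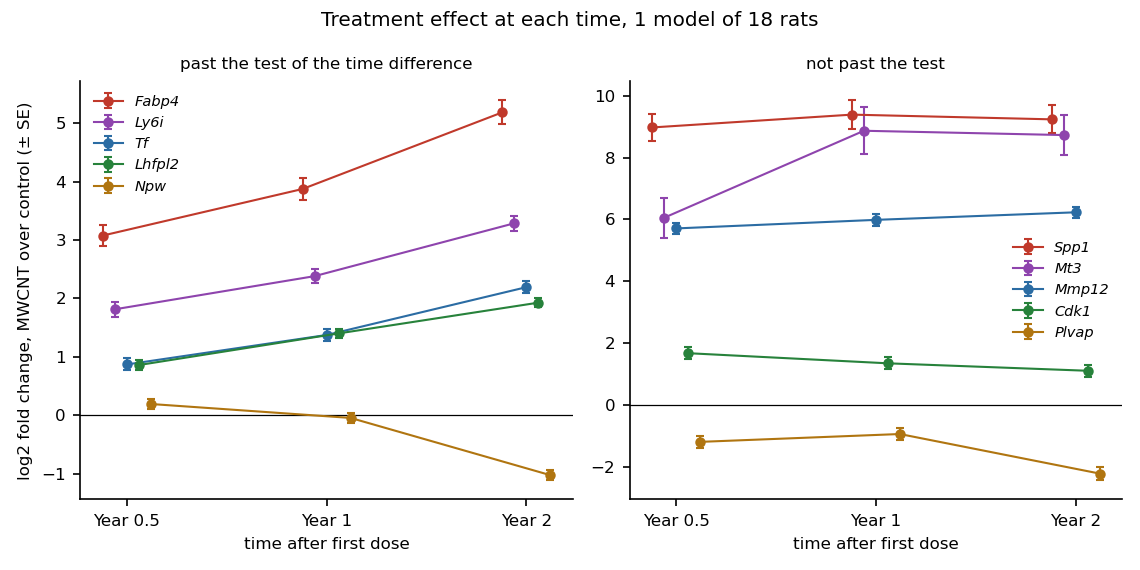
Log2 fold change of MWCNT-treated over control rats at Years 0.5, 1 and 2 (x axis) with its SE (bars), from 1 model of 18 rats, for the 5 genes whose effect at Year 0.5 differed from the later effects (left) and for 5 genes that did not pass that test (right). *Fabp4* rises from 3.08 to 5.19 over the time points, while *Spp1* stays between 8.97 and 9.39.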

How the data were processed

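Lungs of 6 rats at Year 0.5 (3 control, 3 MWCNT-treated) were compared, and 12 rats of Years 1 and 2 entered the time contrast. The authors mapped NovaSeq reads from NEBNext Ultra II libraries to the rat genome (Rnor_6.0, named as rn6 too) in CLC Genomics Workbench. The deposited table holds raw counts per gene, TPM and CPM as signal values scaled by TMM, and columns of the authors' own comparison, which were not used. The counter's settings and strand handling are not given in the sources used here, so overlapping genes and near-identical copies (hemoglobin, RT1, *Lyz2*, *C4a* and *Mrgprx2* genes) are uncertain.

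Counts were tested with edgeR 4.0.16 (limma 3.58.1, R 4.3.3): filterByExpr (minimum count 10, total 15), TMM factors and glmQLFTest, with FDR adjusted over all tested genes. The time contrast was the effect at Year 0.5 minus the mean of the effects at Years 1 and 2, at an FDR below 0.05. DESeq2 1.42.0 and limma on log2(TPM + 1) were alternatives. The procedure was tested on simulated data. Intervals on ratios are exact 95% intervals of counting error only. For genes at 0 counts in a group a floor of 3 counts per library was used. Total counts of 13738894 to 21130757 set the precision.

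Genes were named by rule: the 15 largest rises and 15 largest falls in log2 fold change among DEGs with separate groups and a mean CPM of at least 5, the 10 largest each way in TPM, up to 6 DEGs and 3 most abundant members of each list, genes of the study's qRT-PCR primers, and genes past the time contrast with an absolute difference above 1. The text also names 94 list members outside this rule beside their list's count and 7 other genes, all chosen after their values were seen. The members and lists were chosen with earlier results of these data known. Of 654 list entries 628 matched by symbol and 5 by older symbol in RefSeq's gene table, and 21 were not analysed here. Promoter sequences are from RefSeq (GRCr8), a build other than that of the counts. Some genes that the rule names are not reported here.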

Additional observations from a re-analysis of the deposited data

Results flagged for a closer look

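The treatment effect at Year 0.5 differed from the mean of the effects at Years 1 and 2, by the edgeR test of the difference itself over 14843 genes (0.0337% passed), for 5 genes. The difference, Year 0.5 minus later, was -1.45 for *Fabp4*, -1.02 for *Ly6i*, -0.91 for *Tf*, -0.80 for *Lhfpl2* and 0.73 for *Npw* on the log2 scale. The FDR was 0.0205, 0.0101, 0.0074, 0.0044 and 0.0074 in that order. For *Fabp4* the mean level in MWCNT-treated rats was 278, 373 and 678 TPM at Years 0.5, 1 and 2, and in control rats 36.6, 29.9 and 21.9 TPM. With groups of 3 rats, no test for a single rat far from its group was made. The rats of the 3 time points were different animals, and time and age cannot be told apart.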

How the results depend on the processing

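Upregulated and downregulated genes numbered 869 and 434 in the fit reported, 899 and 413 with DESeq2, 760 and 643 with library size only, 819 and 499 with upper quartile factors, 876 and 427 with RLE factors, 929 and 429 with no filter on low counts, and 703 and 361 with at least 10 counts in every rat. limma on log2(TPM + 1), which shrinks low genes, gave 516 and 387, limma on log2(TPM + 0.1) 695 and 683, an FDR below 0.05 alone 2890 and 2659, and an FDR below 0.01 752 and 271. With 1 rat left out there were 735 to 977 upregulated and 225 to 503 downregulated genes, the lowest of both without MWCNT rat 2. The median of all tested genes moved from -0.02 to -0.12 with library size only and to -0.15 and -0.16 with limma at the larger and smaller pseudocount, and 50.4 to 57.1% of the calls were then higher with limma. An unadjusted p below 0.05 was found for 6842 genes. The time contrast gave 5 genes, but 8 with library size only, 10 with at least 10 counts in every rat, 70 with DESeq2, 18 with limma on log2(TPM + 1), 2 with an absolute difference above 1, and 2 to 8 with 1 rat left out, of which 2 was without MWCNT rat 1, 3 without control rat 3 and 8 without control rat 1. The cause was not tested. Same-numbered rats correlated at 0.072, 0.062 and 0.027 in their deviations from the group means, and differently numbered rats at -0.090 to 0.027. With means of 3 rats these values cannot decide whether the numbers pair the rats. With the replicate number as a block 892 and 420 genes were called, and 2 in the time contrast. Some genes near 0 changed sign without being called. With library size only the log2 fold changes were -0.049 for *Krt19*, -0.020 for *Krt7*, -0.047 for *Erbb2*, -0.011 for *Krt8*, -0.028 for *Krt18*, -0.048 for *Cxcr2*, -0.058 for *Loxl2* and -0.029 for *Cry1*. With limma on log2(TPM + 1) they were -0.085 for *Krt19*, -0.062 for *Krt7*, -0.082 for *Erbb2*, -0.044 for *Krt8*, -0.067 for *Krt18*, -0.089 for *Cxcr2*, -0.094 for *Loxl2* and -0.063 for *Cry1*, and with log2(TPM + 0.1) -0.085 for *Krt19*, -0.063 for *Krt7*, -0.085 for *Erbb2*, -0.044 for *Krt8*, -0.068 for *Krt18*, -0.098 for *Cxcr2*, -0.099 for *Loxl2* and -0.067 for *Cry1*. *Ctsl* was at 0.00071 with DESeq2 and 0.00070 with RLE factors. With 1 rat left out the values ran from -0.051 to 0.037 for *Ctsl*, -0.31 to 0.045 for *Ccl11*, -0.30 to 0.16 for *Il1a*, -0.028 to 0.16 for *Loxl2*, -0.0016 to 0.11 for *Erbb2*, -0.16 to 0.072 for *Mmp8*, -0.090 to 0.037 for *Mdm2*, -0.014 to 0.44 for *Per2*, -0.40 to 0.10 for *Aurkb*, -0.51 to 0.15 for *Cd163*, -0.18 to 0.056 for *Csf3r*, -0.16 to 0.15 for *Nos2*, -0.0078 to 0.16 for *Krt19*, -0.00093 to 0.14 for *Krt7*, -0.051 to 0.18 for *Cxcr2* and -0.14 to 0.11 for *Slc30a1*. Over all named genes and alternatives, 5082 values kept direction and call, 152 lost the call and 101 gained it, and of the list counts 1260 stayed within 1.5 times and 144 did not.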

Other observations

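Among 17 tested circadian clock genes 2 were upregulated and 0 downregulated at Year 0.5, with a median log2 fold change of -0.08, and both are members of 1 family. *Bhlhe41*, a transcriptional repressor of the clock that alveolar macrophages also express, was at 8.96, 11.6 and 15.6 TPM in the control rats and 41.4, 53.4 and 45.3 TPM in the MWCNT-treated rats (log2 fold change 2.11 ± 0.19 (SE), FDR = 7.07e-05). Its relative *Bhlhe40* went from 46.2 ± 5.17 to 93.9 ± 19.2 TPM (SD, n = 3; log2 fold change 1.17). The core clock genes *Per1*, *Per2*, *Cry1* and *Nr1d1* were at 0.28, 0.17, 0.08 and -0.28. Lower values that were not called were -0.62 for *Cry2*, -0.47 for *Arntl*, -0.49 for *Tef* and -0.74 for *Hlf*. In 8 of the 17 genes the MWCNT-treated rats lay below all control rats, and in 3 they lay above. The shares of all tested genes were 25.6% and 26.2%. Of 18 immediate early genes, which respond within minutes to handling and stress, edgeR and DESeq2 called 0. By edgeR 4 had an unadjusted p below 0.05, and the median was -0.01. Their summed level was nevertheless lower, at 2656 to 3618 TPM in the control rats and 1798 to 2312 TPM in the MWCNT-treated rats. In 3 of the 18 genes the MWCNT-treated rats lay below all control rats, and in 1 they lay above. With 1 rat left out, 2 of the 18 were upregulated without control rat 2 and 2 were downregulated without control rat 3 or MWCNT rat 1.

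Some genes had counts on 1 side only and were chosen for mention after their values were seen. *Faahl*, a fatty acid amide hydrolase-like gene, had counts of 48, 32 and 39 in the controls, against 0, 0 and 0 after MWCNT, at least 13.9-fold lower against a floor of 3 counts per library (FDR = 0.00016 by edgeR). *Pla2g4e*, a phospholipase gene, had counts of 0, 0 and 0 in the controls, against 29, 71 and 27 after MWCNT, at least 12.4-fold higher, and *Ankrd34c* and *Adamts18* were also at 0 in all control rats, at least 10.2-fold and 9.16-fold higher. All 4 were called, and their groups did not overlap.

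Several inflammatory and epithelial genes did not have enough counts in enough rats for the test. *Tnf*, the tumor necrosis factor gene, had counts of 1, 0 and 0 in the controls, against 110, 1 and 61 after MWCNT, and its choice for mention also followed its values. A single MWCNT-treated rat was thus at the control level. *Il6* had counts of 1, 1 and 3 in the controls, against 22, 14 and 10 after MWCNT, with the groups separate. *Krt5*, the basal cell keratin, had counts of 8, 1 and 24 in the controls, against 231, 0 and 3 after MWCNT, and nearly all of the MWCNT counts came from rat 1. *Tpsab1*, a mast cell tryptase, had counts of 2, 1 and 5 in the controls, against 21, 127 and 8 after MWCNT, with the highest count in MWCNT rat 2, which was also the highest for *Cpa3*.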
